A study of Tupaia belangeri with 6 samples.

Results

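Loci antisense to named genes were examined in RNA from the prefrontal cortex (PFC) of adult tree shrews (Tupaia belangeri, a small mammal close to primates). An antisense locus was here a locus with a strand but no gene symbol, on a chromosome other than X, that overlapped a named locus on the opposite strand and none on its own strand. Of the 95863 loci in the transcript tables, 23636 met this rule. They were 23636 of the 50606 unnamed stranded loci on the 30 chromosomes used. Of the other unnamed stranded loci, 23958 overlapped no named locus (called intergenic below) and 3012 overlapped a named locus on their own strand. The rule used strand, name and position only. However, the list of loci came in part from transcripts assembled from these same libraries, so abundance could enter through that list.

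Polyadenylated RNA was sequenced from 3 females (numbered 1, 3 and 4) and 3 males (numbered 1, 4 and 5), with one library per animal and no treatment in any of them. The study's animal table lists each male at a greater age than any female, so sex and age cannot be told apart here. Abundance is given as TPM (transcript abundance scaled to the same total in each library), which is corrected for length and keeps no sequencing depth. The tables' mean coverage per locus was not tested, and the number of reads behind a value was not computed. Of the cortical markers, 4 of 6 genes of excitatory neurons were listed and summed to between 2294 and 4104 TPM, and the 3 genes of inhibitory neurons summed to between 307 and 746 TPM. The myelin gene MBP read between 7.07 and 13.7 TPM. The hemoglobin gene HBQ1 read 723, 1253 and 825 TPM in females 1, 3 and 4, against 22.3, 47.2 and 54.4 TPM in males 1, 4 and 5. The heme enzyme ALAS2 was weak, with 0.809 to 3.36 TPM in the females and 0 to 0.779 TPM in the males. HBB and HBA1 were not listed. The part of HBQ1 and ALAS2 in the sex comparison was not tested. In bulk tissue, fewer cells of a type and less RNA per cell cannot be told apart.

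Natural antisense transcripts are made from the strand opposite to a gene. They can start near the gene's promoter and run away from it, meet it at its end, or lie wholly within it, often in an intron, and many are long noncoding RNAs. Some are known to act on the gene they overlap, for example by changing chromatin, splicing or RNA stability, whereas others are separate protein-coding genes that merely share a stretch of DNA. The following limits of the tables apply to all values below. No strand-specific step is named for these libraries, so reads of genes that overlap on opposite strands cannot be told apart. Whether the strand of a locus came from splice sites or from the reference annotation was not tested. Exons are not listed, so exonic and intronic overlap cannot be separated. Finally, "unnamed" means that the table gives no symbol and not that a transcript is noncoding.

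Most antisense loci were short and lay wholly within the gene. Of the 23636 loci, 18632 (78.8%) lay inside the named locus, 2474 (10.5%) overlapped it head-to-head (5′ ends inside each other), 1775 (7.51%) tail-to-tail (3′ ends inside each other) and 755 (3.19%) contained it. The median genomic length was 3875.5 bp (quartiles 1274 and 14412.5 bp), against 5081 bp for intergenic unnamed loci and 23919 bp for named loci. Inside loci were the shortest, with a median of 2576 bp, and containing loci the longest, with 58718 bp. Head-to-head loci shared a median of 20.4% of their length with the gene, and tail-to-tail loci 43.2%. A gene's 5′ end and the antisense 5′ end were within 1000 bp of each other for 933 loci. This count took every kind of overlap, so it is not a count of promoters read in both directions.

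Named genes often had such a partner. An antisense locus overlapped 10381 named loci, which were 50.9% of all named loci used. Their median length was 55876 bp, whereas named loci without one had a median of 8002 bp. In 22490 cases the antisense locus overlapped 1 named locus only. The genes with the most antisense loci were very long. The splicing regulator RBFOX1 (chr2:77036644-79289960) held 32, the adhesion protein gene CDH13 (chr21:21674613-22771123) held 31, and CDKAL1 and the postsynaptic scaffold gene DLG2 held 23 each. At least 0.1 TPM in 3 or more animals was reached by 2 of the 32 loci in RBFOX1, 2 of the 31 in CDH13, 4 of the 23 in CDKAL1 and 5 of the 23 in DLG2, against 23.0% of all antisense loci. These genes averaged 249, 396, 87.9 and 108 TPM.

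The share of unnamed stranded loci that were antisense varied between chromosomes, from 26.5% on chromosome 26 to 65.8% on chromosome 27. Chromosome 27 also had the highest share of antisense loci reaching 0.1 TPM in no fewer than 3 animals, 39.1% of 654, and chromosome 26 had the lowest, 13.7% of 124. On chromosome 26, 11 antisense loci lay in the first stretch that the study set aside as present in males only.

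The tables hold 3 kinds of identifier among these loci. The largest group, 22071 loci, carries numbers that StringTie gave when it merged transcripts. These loci are called assembled below, although genes of the reference annotation such as CHRAC1 carry such numbers too, and 46.9% of them were listed at 0 TPM in all 6 animals. A further 957 come from the reference annotation and are named after a gene with the suffix AS, and 608 are reference long intergenic noncoding (LINC) entries. For 585 of the 957 AS entries (61.1%), a gene overlapped on the opposite strand had the symbol in the entry's name. Few of the entries that kept a reference identifier were above the minimum. Of the AS entries 12 reached 0.1 TPM in 3 or more animals, and of the LINC entries 10 did, against 5416 (24.5%) of the assembled loci. This difference was not tested. StringTie gave its numbers to transcripts assembled from these same libraries and merged with the reference. The kind of identifier is therefore not independent of abundance, and the difference is no measure of reference antisense entries as such.

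Antisense loci were mostly weak, and a small share of them held most of the signal. In all 6 animals, 11743 loci (49.7%) were listed at 0 TPM. At least 0.1 TPM in 3 or more animals, called detected below, was reached by 5438 loci (23.0%). A mean of 1 TPM or more was reached by 2918 loci, of 10 TPM or more by 687, and of 100 TPM or more by 128. Those 128 loci carried 64.5% of all antisense TPM, and the strongest 12 carried 32.0%. Together the antisense loci took 7.89%, 7.67% and 8.45% of the library in females 1, 3 and 4, against 8.34%, 8.47% and 7.80% in males 1, 4 and 5.

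Many loci appeared in a single animal, as intergenic unnamed loci did. Of the loci with at least 0.1 TPM anywhere, 34.2% (3815) reached it in 1 animal and 20.9% (2330) in all 6. Of the intergenic loci, 38.7% reached it in 1 animal and 21.3% in all 6. For named loci antisense to another named locus, 6.65% of those above the minimum reached it in 1 animal and 79.9% in all 6.

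How antisense loci compared with intergenic unnamed loci depended on which identifiers were counted. With all loci counted, the mean log2(TPM + 1) over antisense loci was 0.391, 0.413 and 0.368 in females 1, 3 and 4, against 0.381, 0.432 and 0.406 in males 1, 4 and 5. Over intergenic loci it was 0.228, 0.231 and 0.222 in the females, against 0.222, 0.236 and 0.234 in the males. Antisense loci were thus higher by 0.17 ± 0.018 (SD, n = 6), in 6 of 6 animals (exact sign-flip permutation test over animals, two-sided, p = 0.03125, the smallest it can give, adjusted p = 0.046875 over 3 comparisons). However, 15178 of the 23958 intergenic loci were LINC entries, of which 2.10% were detected. Among assembled loci alone, antisense loci were lower than intergenic loci by 0.16 ± 0.017 (SD, n = 6, exact permutation test, p = 0.03125), so the direction turned. With at least 50% of the locus inside the gene the difference over all identifiers was 0.064, and with a pseudocount of 0.1 it was 0.462. The direction also turned among detected loci, to -0.34 ± 0.044 (SD, n = 6, exact permutation test, p = 0.03125).

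Detection also depended on the identifiers. At least 0.1 TPM was reached by 23.8% ± 2.91 (SD, n = 6) of antisense loci and 11.7% ± 1.33 (SD, n = 6) of intergenic loci, a difference of 12.1 percentage points (exact sign-flip permutation test, two-sided, adjusted p = 0.03125, 6 of 6 animals). Counted at 1 TPM, the difference was 6.18 points. Among assembled loci alone, a comparison chosen after the data were seen, the difference was -1.12 ± 1.22 points (SD, n = 6), which did not pass the test (exact permutation test, p = 0.125). Against unnamed loci on a gene's own strand, the level difference of 0.02 ± 0.021 (SD, n = 6) did not pass the test (exact permutation test, adjusted p = 0.09375, higher in 5 of 6 animals). Its direction depended on the setting, and it passed at 0.163 with a pseudocount of 0.1, at -0.558 among detected loci, at -0.384 among assembled loci and at -0.0863 with at least 50% overlap (exact permutation test, adjusted p = 0.03125). Detection was 7.08 ± 1.40 points higher than in those loci (SD, n = 6, exact permutation test, adjusted p = 0.03125), but the difference was 1.86 points counted at 1 TPM and -9.18 points among assembled loci alone. Named loci antisense to another named locus were higher by far, and the mean log2(TPM + 1) of antisense loci lay at -2.61 ± 0.045 (SD, n = 6) relative to them (exact permutation test, adjusted p = 0.046875, lower in 6 of 6 animals). This was -0.679 without loci of 10 TPM or more, a setting added after the data were seen, and -4.28 with a pseudocount of 0.1.

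Level differed with the kind of overlap. Inside loci were the weakest, with a mean log2(TPM + 1) between 0.234 and 0.305 in the 6 animals. Head-to-head loci lay between 0.722 and 0.748, tail-to-tail loci between 0.975 and 1.05, and containing loci between 1.02 and 1.08. The ranges of inside and head-to-head loci did not overlap with each other or with those of the other kinds. Tail-to-tail loci exceeded inside loci by 0.75 ± 0.017 (SD, n = 6) and head-to-head loci by 0.29 ± 0.024 (SD, n = 6), both in 6 of 6 animals (exact sign-flip permutation test, two-sided, adjusted p = 0.03125 over 6 pairs). With at least 50% of the locus inside the gene, the differences from inside loci were smaller, at 0.155 for head-to-head, 0.448 for tail-to-tail and 0.452 for containing loci (exact permutation test, adjusted p = 0.0375). Among detected loci they were larger, at 1.02, 1.34 and 1.62 (exact permutation test, adjusted p = 0.03125), and containing minus inside was 1.42 among loci with assembled IDs. Containing and tail-to-tail loci differed by 0.025 ± 0.014 (SD, n = 6, exact permutation test, adjusted p = 0.03125). This difference turned to -0.043 with a pseudocount of 0.1. With at least 50% of the locus inside the gene it was 0.0042 and did not pass (exact permutation test, adjusted p = 0.8125). It was 0.554 among loci with assembled IDs and 0.277 among detected loci (exact permutation tests, adjusted p = 0.03125). Length moved with the kind of overlap, and its part was not tested. With the loci split into 4 groups of equal size by length, 16.7% of the shortest and 31.8% of the longest were detected.

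**Figure D1:**
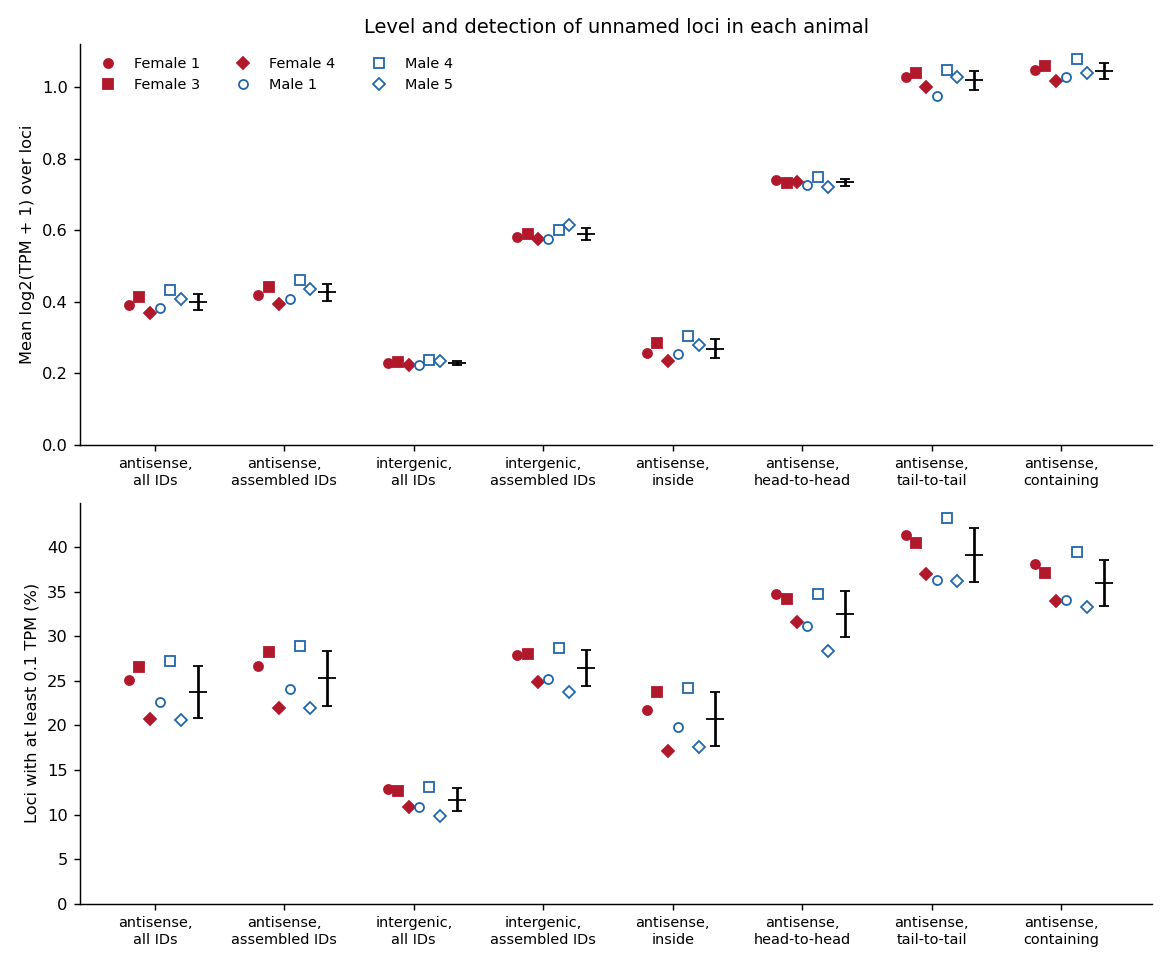
Mean log2(TPM + 1) over loci (top) and percent of loci with at least 0.1 TPM (bottom) for unnamed loci, with 1 point per animal and the mean ± SD of the 6 animals as a black bar. Antisense loci lie above intergenic loci when all identifiers are counted, at means of 0.40 and 0.23, and below them in level among assembled identifiers, where detection differs by -1.12 points and 2 of the 6 animals lie the other way. Inside loci lie below every other kind of overlap.

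For loci inside a gene, detection followed both the gene's own level and the position along it. Among inside loci whose gene averaged under 0.1 TPM, 3.59% to 4.97% reached 0.1 TPM in an animal. The share was 11.8% to 16.4% where the gene averaged 1 to 10 TPM, and 29.1% to 39.4% where it averaged 100 TPM or more. The order of the 5 levels was the same in each of the 6 animals.

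Along the gene, cut into 4 equal parts, the share was lowest near the gene's 5′ end. Inside loci whose midpoint fell in the first part reached 0.1 TPM in 12.7% to 18.5% of cases, and in the second part in 15.3% to 21.6%. In the third part the share was 18.2% to 25.4%, and in the last part 21.3% to 31.1%. In every animal each part exceeded the one before it. The genes behind the 4 parts had similar median levels, between 19.4 and 20.97 TPM. Their median lengths were 150500, 130139, 133628 and 167728 bp from the first to the last part. These shares are a description and were not tested. In unstranded poly(A) libraries, reads of the gene itself can be counted in a locus on the opposite strand, and its part in these shares was not tested.

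**Figure D2:**
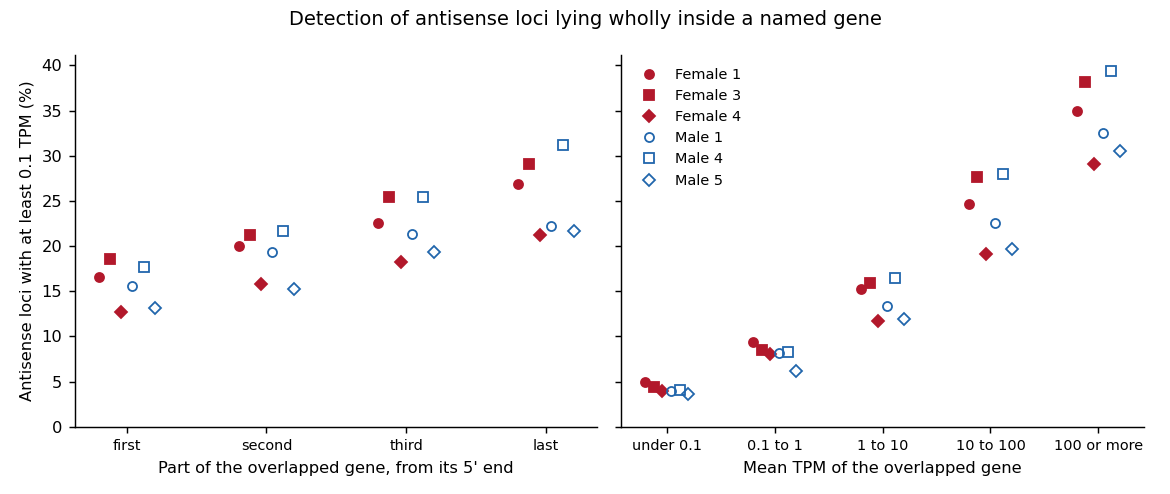
Percent of antisense loci lying wholly inside a gene that reached 0.1 TPM, by the part of the gene (of 4 equal parts) in which they lie (left, from the gene's 5′ end) and by the gene's mean TPM (right), with 1 point per animal. The share is higher in each later part in all 6 animals and ranges from 3.59% to 39.4% across gene levels.

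Above the minimum, the level of an antisense locus followed that of its gene only weakly. In the 5168 pairs with both loci detected, the antisense locus had a median of 1.07 TPM and the gene a median of 34.1 TPM. Across these pairs, Spearman's rho between both levels lay between 0.007 and 0.095 in the 6 animals, a description over loci that share libraries and, in an unstranded library, reads. The mean over the animals was 0.036 for these pairs, 0.188 over all pairs, detected or not, 0.101 with at least 50% of the locus inside the gene and 0.0171 for antisense loci of at least 1000 bp. Within inside pairs rho lay between 0.096 and 0.181.

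In 4346 pairs (84.1%) the antisense locus was below its gene in every animal, and in 349 pairs (6.75%) it was above it in every animal. Among inside loci 1.69% were above the gene in every animal, among head-to-head loci 13.6%, among tail-to-tail loci 19.2% and among containing loci 43.9%. For 3537 pairs of named genes that overlap on opposite strands, the median levels of both partners were 22.7 and 15.2 TPM, against the 1.07 TPM of the antisense loci.

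**Figure D3:**
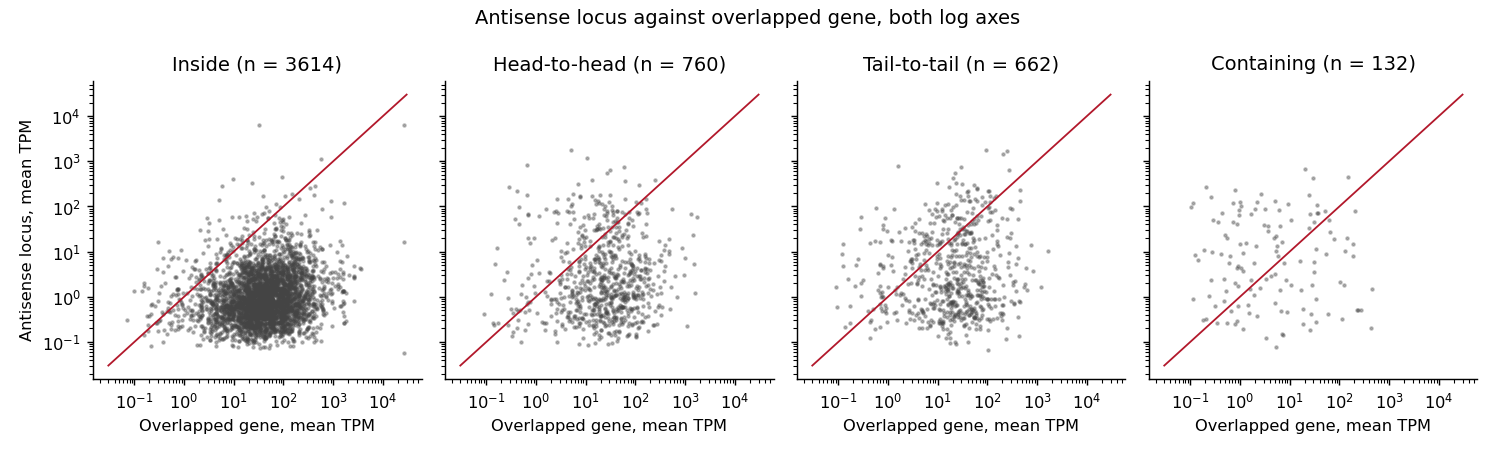
Mean TPM of each antisense locus against the mean TPM of the gene it overlaps, over 6 animals, for the 5168 pairs with both detected, by kind of overlap (both axes are log axes, and the red line marks equal levels). Inside loci lie mostly below the line, whereas 56.8% of containing loci lie above it.

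Antisense locus and gene varied together across animals only slightly. Pearson's r of log2(TPM + 1) over the 6 animals had a median of 0.13 over the pairs (quartiles -0.27 and 0.47), and 58.0% of pairs had a positive r. An r above 0.8 occurred in 286 pairs (5.53%) and below -0.8 in 143 pairs (2.77%). In the pairs of 2 named genes the median was 0.23, with 9.90% above 0.8 and 2.46% below -0.8. With 6 animals a single r is imprecise, and pairs at the ends of the range were picked for it and were not tested.

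At the upper end was a locus inside RTEL1, a helicase gene for telomere maintenance (chr9:48971233-48982255, r = 0.98). It read 310, 256 and 433 TPM in females 1, 3 and 4, against 217, 303 and 189 TPM in males 1, 4 and 5. RTEL1 itself read 482, 393 and 700 TPM in the females, against 276, 516 and 274 TPM in the males, so female 4 was highest and males 1 and 5 lowest for both. The locus inside SMIM1, a blood group protein gene, had an r of 0.99 at 31.5 TPM on average. At the lower end, a locus overlapping TMC4 head-to-head by 745 bp (chr27:13857315-13881310, r = -0.98) read 429, 285 and 373 TPM in the females, against 639, 270 and 358 TPM in the males. TMC4, a transmembrane channel-like gene, read 244, 311 and 247 TPM in the females, against 154, 310 and 246 TPM in the males. Male 1 was thus highest for the locus and lowest for the gene. A locus inside POLR2A, the largest subunit of RNA polymerase II, had an r of -0.97, with 93.1 TPM for the locus and 10.3 TPM for the gene in male 1.

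The strongest antisense locus lay inside CHRAC1, a histone-fold gene of chromatin remodelling complexes (chr13:2961481-3454255, minus strand). It read 5079, 4675 and 6539 TPM in females 1, 3 and 4, against 11241, 4961 and 6639 TPM in males 1, 4 and 5. The named locus spans 729407 bp and averaged 26341 TPM, and it was also highest in male 1 (39145 TPM). Which transcripts these reads came from was not tested, so neither value is a secure measure of CHRAC1 or of a transcript opposite to it. Both values moved together (r = 0.95). A second locus inside the same gene averaged 16.1 TPM, the largest shortfall against its gene among pairs with both loci at 1 TPM or more in every animal.

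The next strongest locus lay inside ESAM, an endothelial adhesion gene (chr9:14601277-14608837, plus strand). It read 5826, 4670 and 9005 TPM in the females, against 4674, 7550 and 5628 TPM in the males. ESAM itself read between 25.8 and 37.6 TPM, so the locus exceeded its gene by 7.50 on the log2(TPM + 1) scale. All 6 animals showed this gap. RefSeq's annotation of another tree shrew assembly places VSIG2, a symbol no locus carries, next to ESAM. Whether the locus is a transcript of ESAM's opposite strand or a gene without a symbol here was not tested.

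Of the remaining 10, 9 overlapped their gene head-to-head or tail-to-tail. The locus head-to-head with WDPCP, a planar cell polarity gene (chr11:61534462-61573598), shared 5.89% of its length with it and averaged 1801 TPM ± 301 (SD, n = 6), whereas WDPCP averaged 4.95 TPM. The locus tail-to-tail with TMEM54 (chr7:56781563-56793645) averaged 1736 TPM and that tail-to-tail with the mesoderm transcription factor gene TBX6 (chr2:59499736-59526797) 1721 TPM. The TBX6 partner was also one of the steadiest loci, at 1740, 1742 and 1742 TPM in the females, against 1822, 1738 and 1539 TPM in the males. RefSeq places PPP4C and YPEL3, symbols no locus carries, next to TBX6, and whether the partner is one of them was not tested. Loci at MPV17L2, MDC1, TEDDM1, C11ORF95, SEPTIN11 and TSORFli144 averaged between 760 and 1478 TPM. The exception was a 1953 bp locus inside BSCL2, the lipid droplet gene seipin (chr17:56286886-56288838). It read 1143, 964 and 1652 TPM in the females, against 1130, 1086 and 852 TPM in the males, above BSCL2 (561 TPM ± 14.1, SD, n = 6) in every animal.

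**Figure D4:**
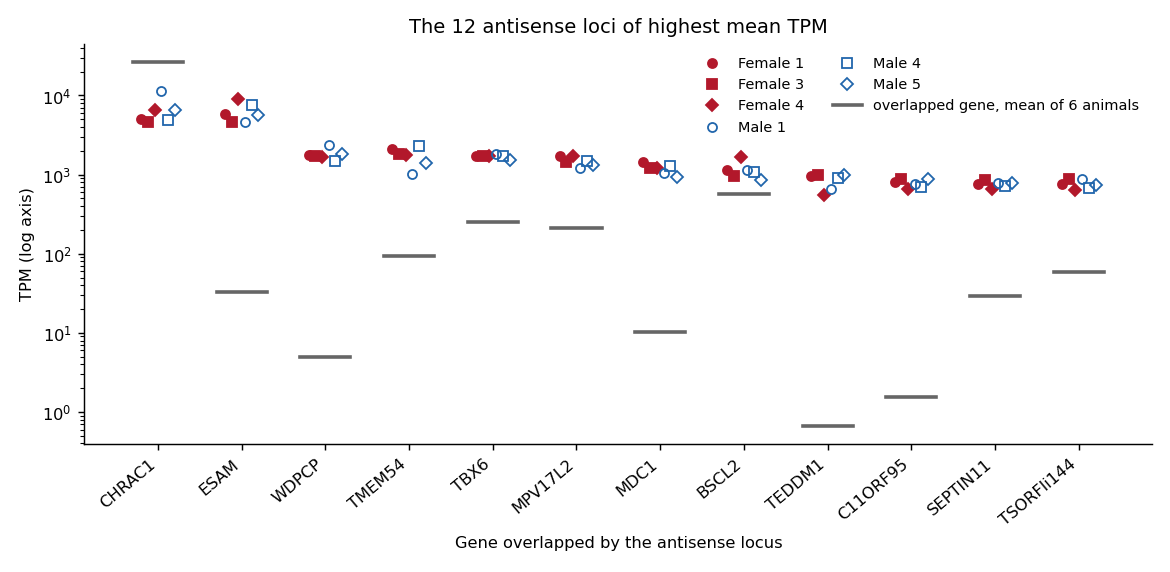
TPM of the 12 antisense loci of highest mean TPM in each animal (log axis), named by the gene they overlap, with a grey line at the mean TPM of that gene. In 11 of the 12 the antisense locus lies above its gene, and the locus inside CHRAC1 lies below it.

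Strong unnamed loci often lay beside a gene that the tables do not name. RefSeq's annotation of another tree shrew assembly (TupChi_1.0) lists 16150 symbols, of which 11767 (72.9%) are carried by a locus here. It was used for neighbours only, because the files are on TS_3.0. Among antisense loci of 100 TPM or more whose gene is in RefSeq, 72 of 91 (79.1%) had a gene next to a RefSeq neighbour whose symbol no locus carried. The share was 71.3% at 10 to 100 TPM, 51.8% at 1 to 10 TPM and 42.5% under 1 TPM, and 40.5% over all named loci.

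Some absent neighbours are given as examples, picked after their names were seen. TUBB, a beta-tubulin gene, lies next to MDC1. RAB3A, a GTPase of synaptic vesicles, lies next to MPV17L2, and GNG3, a neuronal G protein subunit, next to BSCL2. STMN3, a microtubule regulator of neurons, lies next to RTEL1, and TIMP3, a protease inhibitor gene, next to SYN3. Whether an antisense locus is the neighbour itself was not tested, since no sequence of TS_3.0 was used here.

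Some loci carrying the symbol of a housekeeping gene were listed near 0 beside a stronger antisense locus. The ribosomal protein locus RPS18 was listed at 0 TPM in all 6 animals, while the locus head-to-head with it, which shares 2427 bp with it (chr1:4319821-4322530), read between 11.8 and 24.6 TPM. The locus named NDUFA1, after a subunit of mitochondrial complex I, averaged 0.257 TPM, while the locus containing it (chr7:63241627-63297227) read between 128 and 184 TPM. A value of 0 TPM can be a failed estimate, and no fold is given against it. Whether these named loci are the genes themselves or copies of them was not tested.

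Antisense loci varied more between animals than named genes did, with a smaller gap at high levels. Among the 1387 antisense loci with at least 1 TPM in every animal, the coefficient of variation (CV, SD over mean) had a median of 32.0%, against 27.2% for 814 intergenic loci and 23.0% for 9469 named loci. At 100 TPM or more the medians were 20.4%, 20.1% and 18.2%. Inside loci had a median of 39.7% and containing loci of 24.1%. Inside loci remained the more variable at 10 to 100 TPM, with 34.9% against 25.01% over all antisense loci. These medians are descriptions over loci and were not tested.

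Among loci with at least 1 TPM in every animal, the steadiest was a 75264 bp locus that contains SYNPO2L, a muscle cytoskeleton gene (chr14:52945426-53020689). It read 127, 121 and 118 TPM in the females, against 123, 120 and 111 TPM in the males, a CV of 4.58%. The most variable of these loci lay inside PDE7B, a phosphodiesterase gene (chr3:30484143-30487241, CV 177%). It read 1.502, 4.84 and 10.8 TPM in the females, against 71.8, 3.51 and 1.68 TPM in the males, so male 1 stood far above the other animals. Male 1 also stood out at a locus inside PCLO, a scaffold gene of the presynaptic active zone, with 235 TPM against 5.12 to 61.9 TPM in the other animals. PCLO itself ranged from 17.5 to 35.5 TPM, with male 1 lowest. A 98068 bp locus containing RPL21li71 read 1539 TPM in male 4 and 121 to 229 TPM in the other 5 animals, and a locus inside RASGEF1A was likewise highest in male 4, at 15.6 TPM against 1.25 to 2.57 TPM. The locus inside FAM219A was highest in female 4, at 42.6 TPM.

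Most genes for synaptic transmission had antisense loci, most of them not detected. Over all named loci 50.9% had one, and length moved with this share, since the receptor genes and the genes for synaptic vesicle and postsynaptic proteins had median lengths of 268702 and 221370 bp against 23919 bp. Of 31 glutamate and GABA receptor genes in the tables, 26 had antisense loci, 140 in all, of which 33 (23.6%) were detected against 23.0% of all antisense loci. The strongest lay inside GRIN2A, an NMDA receptor subunit gene (chr2:75141946-75150530), and read 61.3, 63.7 and 54.0 TPM in the females, against 61.4, 79.7 and 113 TPM in the males. Male 5 was highest for this locus and for GRIN2A (62.2 TPM). The head-to-head partner of GABRA2, a GABA-A receptor subunit gene (chr20:32771724-32775508), read 5.78, 7.15 and 0.692 TPM in the females, against 14.5, 24.3 and 27.2 TPM in the males. The sexes did not overlap there, but the locus was not called (adjusted p = 0.925 by limma). Such separation occurred at 8.65% of the antisense loci tested and 9.81% of all loci tested. GABRA2 itself lay between 33.4 and 57.2 TPM in the females and 57.8 and 73.4 TPM in the males.

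Of 36 genes for synaptic vesicle and postsynaptic proteins, 30 had antisense loci, 149 in all, of which 40 were detected. The locus inside SYN3, a synapsin gene (chr6:114620924-114695636), averaged 137 TPM ± 27.3 (SD, n = 6), while SYN3 averaged 4.94 TPM. A tail-to-tail partner of CAMK2G, a calcium/calmodulin kinase subunit gene, averaged 91.2 TPM. Of 57 voltage-gated channel genes, 42 had antisense loci, and 24 of these 137 loci (17.5%) were detected. Of these, 2 loci of the sodium channel gene SCN9A averaged 8.51 and 6.66 TPM.

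Transcription factors of forebrain neurons had antisense loci in 32 of 40 genes (80%), against 50.9% of all named loci. Here too the genes were long (median 61138 bp), and the part of length was not tested. Of their 120 antisense loci 29 (24.2%) were detected, against 23.0% of all antisense loci. The tail-to-tail partner of DLX1, a homeobox gene of inhibitory neurons (chr1:153764218-153779347), read 32.1, 46.6 and 31.2 TPM in the females, against 25.2, 28.8 and 22.2 TPM in the males. DLX1 had nearly the same level, 31.1 TPM on average, and female 3 was highest for both. RefSeq places DLX2, a symbol no locus carries, next to DLX1, and whether the locus is DLX2 was not tested. Loci inside MEIS2 and NFIB averaged 31.6 and 18.2 TPM.

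Genes whose antisense transcripts are catalogued in human were listed separately. Of 42 such genes, 34 (81.0%) had antisense loci, against 50.9% of all named loci. They were longer than most, since half-way by length they stood at 51295 bp and all named loci at 23919 bp. Of their 80 antisense loci 22 (27.5%) were detected, against 23.0% of all antisense loci. The part of length in these shares was not tested. The head-to-head partner of SIX3, a forebrain homeobox gene (chr11:79291013-79300763), read 12.2, 7.81 and 0.721 TPM in females 1, 3 and 4, against 7.35, 0.315 and 1.002 TPM in males 1, 4 and 5. SIX3 itself read 13.9, 10.4 and 0.327 TPM in the females, 19.1 TPM in male 1 and was listed at 0 in males 4 and 5. Females 1 and 3 and male 1 were thus high for both, and the other 3 animals low for both. The locus inside UCHL1, a neuronal ubiquitin hydrolase gene, averaged 8.08 TPM beside 1904 TPM for the gene.

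In the remaining lists a smaller share of the genes had antisense loci. Cadherins and protocadherins had antisense loci in 23 of 37 genes, with 26 of 96 loci detected. Among the strongest, 3 lay within the named locus PCDHB14. Similar gene copies can make read assignment uncertain there, which was not tested. Zinc finger genes had them in 121 of 200 genes, with 87 of 271 loci (32.1%) detected, and the head-to-head partner of ZNF408 was the strongest at 136 TPM. Splicing regulators had them in 38 of 65 genes, with 31 of 133 loci detected, led by a 349 bp locus inside HNRNPDL at 150 TPM. Mitochondrial respiratory and ribosomal protein genes had them in 79 of 201 genes, the lowest share of the 9 lists, with 44 of 122 loci (36.1%) detected, the highest share. These genes were also the shortest, with a median of 11614 bp.

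No antisense locus passed the test for a difference between females and males. Of the 23636 loci, 5436 passed the filter of 0.1 TPM in 3 or more animals and entered the fit, and 0 had an adjusted p under 0.1 (limma with Benjamini-Hochberg adjustment over 27996 loci), against 0.0143% of all loci tested. The smallest adjusted p was 0.925. At an unadjusted limma p under 0.05, 98 loci (1.80%) were higher in females, against 109 (2.01%) in males, against 2.42% and 2.61% of all loci tested. With quantile normalization these counts were 124 and 87, so the split between the sexes depended on the scaling. Other filters change which loci enter the fit. The counts higher in females and in males were 64 and 73 with no filter. With at least 1 TPM in 3 animals they were 65 and 81. With 1 animal left out, the count higher in females reached 180 (without male 4) and was 52 without male 5, and the count higher in males ranged from 55 (without female 1) to 212 (without male 1). The TPM of the sexes did not overlap for 470 loci (8.65%), against 9.81% of all loci tested. limma without a mean-variance trend also called 0.

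Taken over the 5436 antisense loci in the fit, the level did not differ between the sexes beyond the spread between animals. Their mean log2(TPM + 1) was 1.56, 1.61 and 1.48 in females 1, 3 and 4, against 1.46, 1.68 and 1.59 in males 1, 4 and 5, a difference of -0.03 (exact permutation test, p = 0.8). Its sign turned without female 4 (0.0048), without male 4 (0.0223), with quantile normalization (0.068) and with a pseudocount of 0.1 (0.00026). Male 1 was lowest and male 4 highest, so the males spanned the females. Over all loci tested the difference was -0.08 (exact permutation test, p = 0.4). The share of the library in antisense loci differed by -0.198 percentage points (exact permutation test, p = 0.6). It differed by -0.423 points with stranded loci only in the denominator (p = 0.3) and by -0.0893 points without the 10 strongest loci (p = 0.8), both by exact permutation tests. Loci without a strand took 2.30% to 3.33% of the library in the females and in male 4 and 5.16% and 7.88% in males 1 and 5. With 3 animals against 3 this test cannot give a p below 0.1.

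The loci with the smallest unadjusted p are described without a call. The locus tail-to-tail with KANK3, an ankyrin repeat gene of blood vessels (chr27:7745876-7746732), read 248, 166 and 395 TPM in females 1, 3 and 4, against 928, 676 and 872 TPM in males 1, 4 and 5. The groups did not overlap, and the difference was -1.69 ± 0.317 (SE, n = 3 per sex, adjusted p = 0.925 by limma, 0.338 to 1 over the alternatives). The gene KANK3 was higher in the females (25.1 to 36.3 TPM) than in any male (13.8 to 18.2 TPM). RefSeq places the ribosomal protein gene RPS28, a symbol no locus carries, next to KANK3.

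The locus inside MROH5li1 (chr13:1941227-1982765) read 19.2, 31.2 and 28.5 TPM in the females, against 10.6, 6.21 and 3.86 TPM in the males. The locus tail-to-tail with L1RE1li245, a locus named after a LINE-1 retrotransposon (chr7:87761139-87765333), read 42.7, 41.8 and 40.3 TPM in the females, against 77.4, 65.5 and 84.9 TPM in the males. Copies of such elements are near-identical, so this value is uncertain. A locus inside KCNIP4, a potassium channel regulator gene (chr29:5077400-5081689), was listed at 0 in every female and read 3.45, 3.14 and 2.17 TPM in the males. A locus inside SARDH, a mitochondrial dehydrogenase gene (chr2:93327223-93337697), read 2.21, 1.93 and 1.93 TPM in the females and was listed at 0 in every male. All 5 had an adjusted p of 0.925 by limma.

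One locus was called when an animal was left out. It overlapped IREB2, an iron-responsive RNA-binding protein gene, tail-to-tail, with 98.7% of its length inside it (chr22:34234939-34248165, plus strand), and was singled out after its values were seen. It read 113, 109 and 135 TPM in females 1, 3 and 4, against 141, 8.71 and 8.15 TPM in males 1, 4 and 5. Male 1 was the highest animal of all, and males 4 and 5 were more than 10-fold lower. Without male 1 its adjusted p was 0.00369 by limma, and with all 6 animals 0.925. IREB2 itself read 12.4, 16.2 and 6.45 TPM in the females, against 7.42, 11.4 and 18.0 TPM in the males.

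**Figure D5:**
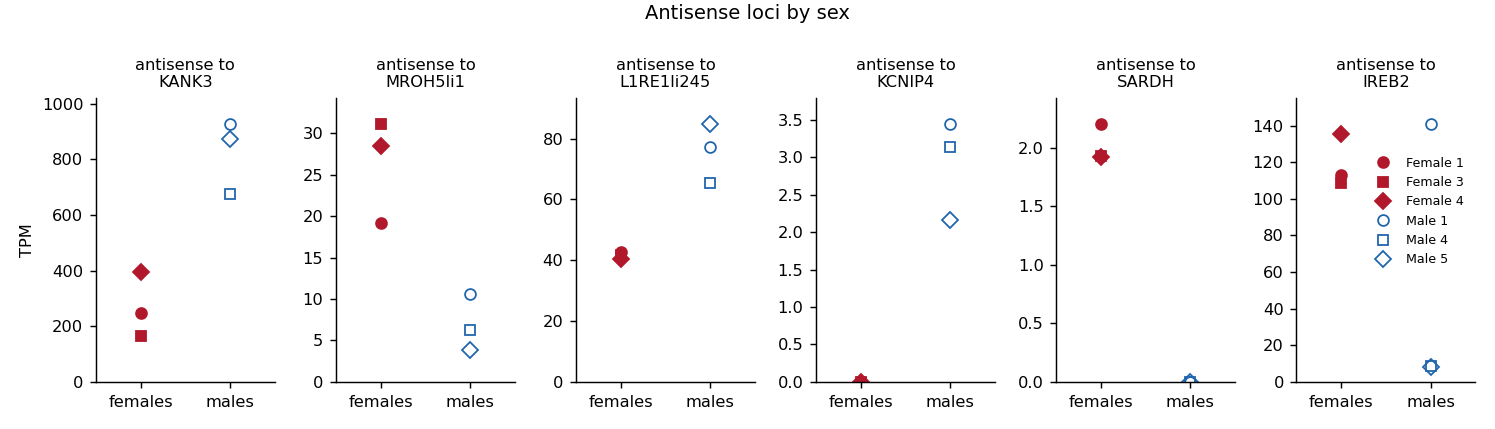
TPM in each animal of the 5 antisense loci with the smallest unadjusted sex p and, at right, of the locus antisense to IREB2, with females filled and males open. The sexes do not overlap in the first 5 panels, and at IREB2 male 1 (141 TPM) lies with the females while males 4 and 5 lie below 10 TPM.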

How the data were processed

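The authors mapped poly(A)-selected reads of each animal to TS_3.0 with HISAT2 2.2.1 and assembled, merged and measured transcripts with StringTie 2.2.1. The deposited tables give TPM, FPKM and coverage per locus, without counts. TPM sums to between 950532 and 971492 per library. The deposited FPKM and the deposited coverage were read but not tested, and the number of reads behind a value is not given in these tables.

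Loci were matched by gene ID, and 3 IDs with 2 rows in some tables (none antisense) were summed, although the design had kept loci apart. Where a locus overlapped several genes, the longest overlap was used. Sex was tested with limma 3.58.1 (R 4.3.3) on log2(TPM + 1), which understates changes of weak loci, with loci of at least 0.1 TPM in 3 animals, Benjamini-Hochberg adjustment over all loci off the X chromosome and a threshold of 0.1. The first stretch of chromosome 26 was left out of this fit. Other values came from scipy 1.17.1, pandas 2.3.3 and numpy 2.4.6 under Python 3.11.15, with figures by matplotlib 3.10.9. Sign-flip tests over 6 animals cannot give a p below 0.03125, and were read against 0.05. One library per animal was used, and p-values rest on the spread between animals. In the sign-flip tests the sets of loci were fixed, so a small p means the same direction across animals. It does not measure the spread over loci. Simulated data served to check the limma step.

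Loci were named by rule: the 12 of highest mean TPM, the 5 of smallest sex p, the 5 at each end of CV, of level against the gene and of r, the 3 longest, and up to 4 per gene list. The text gives those that a result turns on. Loci, lists and rules were chosen with earlier results of these data known. Gene names of 9 lists were matched by symbol. RefSeq (TupChi_1.0) served for neighbouring symbols only. Alternatives were pseudocount 0.1, other filters and scalings, assembled IDs only, at least 50% overlap, other host choices, a replicate block and each animal left out. Some results are not reported here.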

Additional observations from a re-analysis of the deposited data

How the results depend on the processing

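Antisense minus intergenic level turned to -0.338 among detected loci and -0.163 among assembled IDs, and the detection difference to -1.12 points among assembled IDs, a setting chosen after the data were seen. Against unnamed loci on the gene's own strand, the level difference became -0.558 among detected loci, -0.0863 with at least 50% overlap and -0.384 among assembled IDs, and the detection difference -9.18 points among assembled IDs. These 3 level differences passed the test in the opposite direction, and the level difference also passed with a pseudocount of 0.1 (0.163) and, in a setting added later, without loci of 10 TPM or more (0.058). Containing minus tail-to-tail level was -0.0427 with a pseudocount of 0.1 and 0.0042 with at least 50% overlap, against 0.554 among assembled IDs and 0.277 among detected loci. The mean sex difference was 0.00026 with a pseudocount of 0.1 and 0.068 with quantile normalization. The cause of these shifts was not tested.

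With 1 animal left out, the sign-flip tests cannot give a p below 0.0625, so no difference can pass, and the ranges are values only. Level differences were 0.165 to 0.175 (antisense minus intergenic) and -2.61 to -2.59 (minus named antisense). Detection differences were 11.7 to 12.6, 6.71 to 7.42 and -51.7 to -50.7 points against intergenic, own-strand and named antisense loci. Overlap differences were 0.458 to 0.469 (head-to-head minus inside), 0.746 to 0.756 (tail-to-tail minus inside), 0.773 to 0.779 (containing minus inside), 0.281 to 0.293 (tail-to-tail minus head-to-head), 0.307 to 0.317 (containing minus head-to-head) and 0.0203 to 0.028 (containing minus tail-to-tail). The mean sex difference was -0.0886 to 0.0223, turning sign without female 4 (0.0048) or male 4 (0.0223). The sex difference in library share was -0.422 (without female 4) to -0.0327 (without female 3) points, -0.0658 without male 4 and -0.4 without male 5. Sex calls were 0 to 1, with the call at the IREB2 locus without male 1. Counts at an unadjusted p under 0.05 ranged from 52 (without male 5) to 180 (without male 4) higher in females and from 55 (without female 1) to 212 (without male 1) higher in males.

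Animal numbers 1 and 4 occur in both sexes but did not pair the samples (r of -0.0013 and 0.039 between same-numbered deviations). With the replicate block, 0 loci were called, 67 and 93 passed an unadjusted p of 0.05, and the mean sex difference was -0.0569. Summing loci of one gene ID was not run as a separate setting, since no antisense locus has such rows.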

Other observations

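The longest antisense loci ran across genes rather than within them. The longest, chr9:4370764-6437593 on the plus strand, spans 2066830 bp, contains the locus named UBE2E1, listed at 0 TPM in every animal, and averaged 0.814 TPM. A locus at chr6:72397872-73478338 that contains SETMARli24, also listed at 0 TPM in every animal, read 22.7, 28.9 and 22.2 TPM in females 1, 3 and 4 and 27.2, 25.4 and 47.5 TPM in males 1, 4 and 5, with male 5 highest. A locus at chr1:113228790-114462706 that contains GPR39li1 read 16.7, 20.01 and 7.79 TPM in the females and 25.9, 9.29 and 2.86 TPM in the males. The partner of TP73, a p53 family gene, was lowest in male 1, at 0.850 TPM, against 5.06 to 15.9 TPM in the other 5 animals.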
